A study of Proteus anguinus with 14 samples.

Results

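The genes of 4 signalling pathways, Wnt, BMP, TGF-beta and Notch, were followed across 6 organs of the olm (Proteus anguinus), a cave salamander. Genes entered by the symbol that the authors' annotation gave them, from the families WNT, FZD, AXIN, DKK, SFRP, LRP5 and LRP6, BMP, GDF, TGFB, SMAD, ACVR, NOTCH, JAG, DLL, HES and HEY. Among the deposited rows, 55 carried such a symbol and stood for 49 different genes, of 7754 distinct symbols in the table. Each gene was represented by its row with the highest mean, and 40 of the 49 reached a TPM (the length-corrected share of transcripts that the table gives) of 1 in at least 2 of the 14 samples. These 40 are described here, out of 16317 genes that passed the same filter. The 16317 hold every row that passed, also lower rows of a symbol that another row carries. Shares of the 40 and of all genes are therefore not taken from like sets. The other 9 were too low to be tested, namely BMP5, ACVR1C, TGFBR1, FZD6, LRP6, HES4, DKKL1, SFRP4 and WNT5B, and the highest TPM of any of them was 1.46 (DKKL1).

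The samples came from 3 animals, called p4, p5 and p6, wild olms that floods had washed out of caves in Croatia and that were held one to a tank in darkness as the non-infected controls of an infection study. Their age is not given in the sources used here, and all 14 samples share this origin. By the sample titles, brain, heart and skin were sampled in p4 and p6, gut in p4 and p5, and liver and lung in all 3 animals, so that an organ has 2 or 3 samples, each from another animal. The supplementary sample list exchanges the animals p5 and p6 for 1 gut and 1 heart sample. Polyadenylated RNA was sequenced, and the TPM that were deposited account for transcript length.

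Wnt proteins are secreted ligands that bind Frizzled receptors at the cell surface and, in one branch of the pathway, stabilise beta-catenin. Secreted antagonists such as the Dickkopf and SFRP proteins and the intracellular scaffold axin hold that branch in check. BMP, GDF and TGF-beta ligands assemble pairs of receptor kinases that phosphorylate SMAD proteins, which then enter the nucleus. Notch receptors are cleaved after binding a Jagged or Delta-like ligand on a neighbouring cell, and the released part switches on repressors of the HES and HEY families. In adult vertebrates these pathways maintain stem cells and organ zones, and liver, gut, skin and nervous tissue are textbook settings for them.

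Levels below are normalized TPM, that is, TPM divided in each sample by its median ratio to the geometric mean over 13067 genes. The divisor was 2.136 and 2.149 in brain and 0.519 to 0.740 in lung, and without it a log2 fold change shifts, at the median gene, by 1.03 for brain, by 0.29 for heart, by -0.38 for liver and by -0.61 for lung. Each organ was tested against all other samples with limma on log2(normalized TPM + 1), which makes the changes of low genes look smaller, and a gene was called at an adjusted p under 0.05 and a fold change above 2. The organ names are those of the sample titles, since the tissue fields of the records disagree with the titles for gut, heart, liver and lung. CDX1, an intestinal transcription factor, stood at 258 or more in the samples titled gut and at most 0.849 elsewhere, NKX2-5 of heart muscle at 229 or more in heart and at most 1.96 elsewhere, and TP63 of the epidermis at 34.2 or more in skin and at most 6.04 elsewhere. Some samples carried transcripts of another organ. In brain and heart, 3 skeletal muscle genes summed to 1536 and 2166 normalized TPM in p4 and to 18062 and 22525 in p6, and they were highest in skin, at 62956 and 68154. The skin genes KRT5 and TP63 stood at 111 and 3.17 in brain of p4 and at 188 and 6.04 in brain of p6. In gut, heart, liver and lung they reached at most 62.6 and 0.985. The red blood cell genes HBE1 and ALAS2 summed to 1049730, 565722 and 749159 in lung of p4, p5 and p6, and to between 3977 and 124221 in the other samples. Across the 3 lung samples, 6 plasma protein genes of hepatocytes summed to 367 in p4, 19849 in p5 and 14805 in p6, and in the liver samples to between 93170 and 191996. The p5 liver sample had 39.7 normalized TPM of 3 lung genes, against 4.51 and 3.36 in the other liver samples. The part of these transcripts in the results below was not tested. The calls in brain and heart are given without the p6 samples, those in liver without the p5 sample, and those in lung without the p5 and p6 samples. Both skin samples held the muscle transcripts, both brain samples the skin genes and all lung samples the red blood cell transcripts. No such comparison was made for these.

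Of the 40 genes, 22 differed among the 6 organs at an adjusted p under 0.05 from limma's moderated F test, which is 55% of them, while 34.2% of all tested genes did so. The number lay between 16 and 23 when each sample was left out in turn. The 22 genes include WNT9B and GDF5, which passed the filter on low values through brain alone and lung alone. These genes could enter the F test only by being high in that organ. For single organs, 15 genes were called. Brain had 4 higher genes (10%, against 11.2% of all genes tested), gut had 1 (2.5% against 1.86%) and heart had 0 (against 0.723%). Liver had 4 (10% against 2.29%), lung had 3 (7.5% against 0.821%) and skin had 2 (5% against 1.94%). The brain count includes WNT9B and the lung count GDF5, which passed the filter on low values through that organ alone and so had to be high there. The share in brain was near that of all genes, and the share in liver was above it. With TPM as deposited, limma called 6579 of all 16317 genes higher in brain, 178 in liver, 20 in lung and 173 in skin. Of the 40 genes it then called 10 higher in brain and 1 each in liver, lung and skin. The brain count was 0 without the p4 brain sample and 2 without that of p6, the gut count 0 without either gut sample, the liver count 2 without the p6 liver sample, the skin count 0 without the p4 skin sample, and the lung count 0 without the lung samples of p5 and p6. Lower calls came to 1 gene in brain (2.5% against 3.36%) and to 0 in the other organs, where the lower calls among all genes were 0.0674% for gut, 0.0123% for heart, 0.0613% for liver, 0.0429% for lung and 0.0674% for skin. At an unadjusted p under 0.05 from limma, 6 genes were higher and 4 lower in brain, and 8 higher and 1 lower in liver. Heart had 2 higher and 1 lower, gut 3 and 1, and lung and skin 4 and 2 each. With the spread taken within organs and the organ set against the mean of the other 5, limma called 2 higher and 1 lower in heart, 2 lower in gut, 1 lower in liver, 0 lower in lung and 4 lower in skin. The shares of all genes at that unadjusted threshold and in that fit were not computed, so these counts cannot be set against them. A difference between organs in bulk tissue can come from more cells of a type or from more RNA per cell, and these cannot be told apart here.

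**Figure D1:**
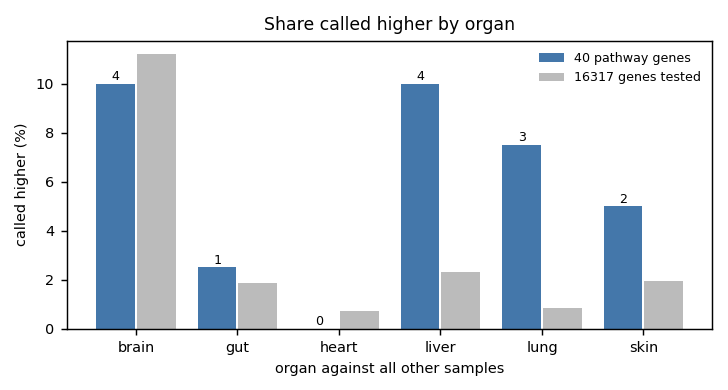
Share of genes called higher in each organ against all other samples (percent, vertical axis), for the 40 pathway genes (blue, with their number above the bar) and for the 16317 genes tested (grey). In brain the blue bar of 10% is below the grey bar of 11.2%, and in liver and lung the blue bars of 10% and 7.5% are above grey bars of 2.29% and 0.821%. The blue bars count WNT9B in brain and GDF5 in lung, which passed the filter through that organ alone.

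**Figure D2:**
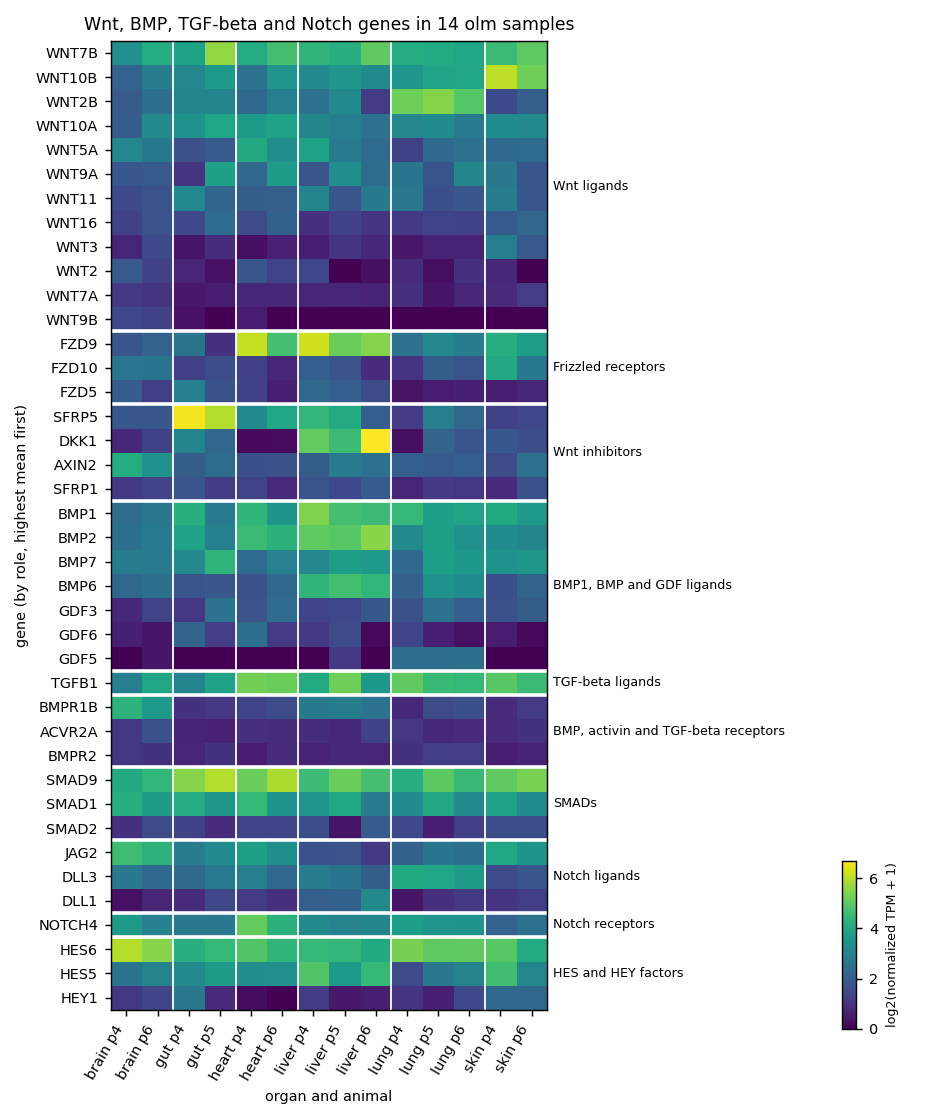
Level of the 40 genes (rows, grouped by role, the highest mean first) in the 14 samples (columns, organ and animal) as log2(normalized TPM + 1), from dark (0) to bright. Bright cells stand out for SFRP5 in gut, FZD9 in heart and liver, DKK1 in liver, WNT2B in lung, WNT10B in skin and HES6 in brain.

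The 12 Wnt ligands together summed to 38.2 and 54.3 normalized TPM in brain, the lowest mean of the 6 organs, and to 124 and 96.1 in skin, the highest mean. The p5 gut sample, at 106, lay between the skin samples. The low place of brain depends on the divisor. In TPM as deposited, both brain samples lay above all liver and lung samples in this sum. WNT7B was the most abundant of the Wnt ligands in brain, gut, heart and liver, in every sample of these organs. WNT2B took that place in the 3 lung samples, with 35.8% to 46.6% of the ligand total, and WNT10B in the skin samples, with 52.4% and 37.6%. Skin and lung thus differed from the other organs in which ligand led.

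WNT2B, a ligand that is needed for lung specification together with WNT2 in the mouse, stood at 36.6, 43.1 and 29.6 normalized TPM in lung of p4, p5 and p6. In the 11 other samples its level was between 1.28 and 7.90, with a median of 4.48. Every lung sample was therefore above every other sample, and the mean difference was 2.85 ± 0.39 on the log2 scale (SE, limma adjusted p = 0.00157). WNT2 itself was low, at 0.197 to 0.955 in lung and at most 2.69 in brain, and did not pass (adjusted p = 0.126 from the F test). The lung call of WNT2B did not pass with TPM as deposited (log2 fold change 2.02, adjusted p = 0.0802) or with lung of p5 and p6 both omitted (log2 fold change 2.89, adjusted p = 0.185).

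WNT10B and WNT3, which act in the formation of hair follicles and skin appendages in mammals, were the skin ligands. WNT10B stood at 65.0 and 36.1 normalized TPM in skin of p4 and p6 and between 3.39 and 14.5 elsewhere, with a median of 9.20. The next highest were lung of p6 and p5 at 14.5 and 14.0, and the skin samples lay above all others by 2.38 ± 0.42 on the log2 scale (SE, limma adjusted p = 0.00461). WNT3 was lower, at 6.45 and 2.64 in skin and at most 1.77 elsewhere (1.67 ± 0.30 on the log2 scale, SE, limma adjusted p = 0.00465). Both calls rested on the p4 skin sample, without which the adjusted p was 0.274 for WNT10B and 0.328 for WNT3, and WNT3 did not pass with TPM as deposited (adjusted p = 0.0845). With a pseudocount of 5 the log2 fold change of WNT3 was 0.72, below the threshold.

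WNT9B, which in the mouse directs the epithelium of the developing kidney, was the one Wnt ligand called in brain, at a low level. It stood at 1.73 and 1.45 normalized TPM in brain of p4 and p6, at 0.45 in the p4 heart sample and at 0.253 in the p4 gut sample, and it is listed at 0 in the remaining 10. The brain samples lay above all others by 1.30 ± 0.15 on the log2 scale (SE, limma adjusted p = 2.58e-05), which was 0.38 with a pseudocount of 5. The gene passed the filter through the brain samples alone, so that it could enter the test only by being high there. Without either brain sample it did not reach 1 TPM in 2 samples and was not tested.

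The other 8 Wnt ligands did not pass the F test. WNT7B, which signals to blood vessels of the brain in the mouse, had the highest mean of all Wnt ligands. It stood at 9.30 and 16.9 normalized TPM in brain, 13.8 and 48.1 in gut, and 14.3 to 32.7 elsewhere (adjusted p = 0.409 from the F test). The gut samples thus differed from each other by more than most organs did. WNT5A, a ligand of the branch that does not use beta-catenin, came close to the threshold, with 15.9 and 8.87 in heart, 4.09 to 13.5 in liver and at most 7.81 elsewhere (adjusted p = 0.0549). WNT10A, WNT11, WNT16, WNT2, WNT7A and WNT9A had adjusted p-values between 0.122 and 0.870 and stayed at 14.2 normalized TPM or less in all 14 samples. The rows of WNT5B and WNT7B belong to the same assembly component, so that reads of these related genes may have been shared between them.

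Frizzled receptors had patterns that joined organs. FZD9 stood at 68.2 and 24.9 normalized TPM in heart of p4 and p6 and at 73.3, 35.3 and 42.8 in liver of p4, p5 and p6. Skin followed at 17.4 and 12.5, lung at 4.70 to 7.57, gut at 4.95 and 0.948, and brain at 2.47 and 3.35. Heart and liver overlapped with each other and both lay above the 9 other samples. FZD9 differed among the 6 organs (adjusted p = 0.000246 from the F test) and passed in all 25 alternatives of that test, while it was not called for any organ against the rest. The row is close in the assembly to that of FZD10, with which it shares a component.

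FZD10 stood at 15.6 and 5.57 normalized TPM in skin of p4 and p6, with brain next at 5.17 and 5.05 and the remaining 10 samples between 0.659 and 3.04. The p6 skin sample was thus barely above brain, and the difference of skin from all others did not pass (1.77 ± 0.49 on the log2 scale, SE, limma adjusted p = 0.0892), although the F test did (adjusted p = 0.0172). The skin difference passed in 5 of 26 alternatives, among them those without the p4 or p6 brain sample (adjusted p = 0.045 and 0.0488) and with a pseudocount of 5 (0.0345). Both brain samples also held the skin genes KRT5 and TP63, whose part in the FZD10 values of brain was not tested. FZD5, which in the mouse keeps the Paneth cells of the gut, stood at 6.36 and 2.16 in gut, 1.87 to 3.73 in liver, 2.90 and 1.36 in brain, and at most 1.47 in the other organs (F test, adjusted p = 0.0138). Gut, liver and brain overlapped, and the highest lung sample was at 0.515. By their summed level the 3 receptors were led by FZD9 in heart, liver, lung and skin, by FZD10 in brain and by FZD5 in gut.

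SFRP5, DKK1 and AXIN2, which restrain Wnt signalling, were each called in a different organ. SFRP5, a secreted protein that binds Wnt ligands, stood at 94.2 and 60.3 normalized TPM in gut of p4 and p5. Elsewhere it was between 1.24 and 20.6, with a median of 3.32 and the highest values in liver (20.6, 16.2 and 3.01). The gut samples were above all others, by 3.73 ± 0.78 on the log2 scale (SE, limma adjusted p = 0.0172). The call was lost when gut of p4 was left out (adjusted p = 0.282), without the p5 gut sample (0.138) or with the animal of the title as a replicate block (log2 fold change 3.42, adjusted p = 0.0851 from limma), and it passed with the animal of the supplementary sample list as the block (log2 fold change 4.14, adjusted p = 0.00506).

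DKK1, which closes the LRP co-receptors to Wnt ligands, was the inhibitor of the liver, at 33.2, 23.3 and 103 normalized TPM in the p4, p5 and p6 samples. Gut followed at 7.06 and 3.63, and heart was lowest at 0.134 and 0.151. The liver samples were above all others by 4.07 ± 0.58 on the log2 scale (SE, limma adjusted p = 0.00119), and this call passed in all 26 alternatives, with an adjusted p of at most 0.0164. It was the one call of the 15 that did so. In lung, DKK1 stood at 3.38 and 2.47 in p5 and p6 and at 0.183 in p4, and the plasma protein genes given above were high in the same 2 samples. Their part in these lung values was not tested.

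AXIN2, a scaffold of the complex that degrades beta-catenin and itself a target of the pathway, stood at 16.6 and 9.97 normalized TPM in brain of p4 and p6 and between 1.90 and 5.61 elsewhere. Both brain samples were above all others, by 1.72 ± 0.33 on the log2 scale (SE, limma adjusted p = 0.00172). The call was lost when brain of p4 was left out (log2 fold change 1.38, adjusted p = 0.144) and passed without the p6 brain and heart samples (2.01, adjusted p = 0.00972). SFRP1 was low throughout, between 0.614 and 2.87, and did not pass the F test (adjusted p = 0.353). The 4 inhibitors together summed to 107 and 69.3 in gut and 46.9 to 114 in liver, and to at most 21.1 in any sample of brain, heart, lung and skin. In TPM as deposited, brain and liver overlapped in this sum.

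**Figure D3:**
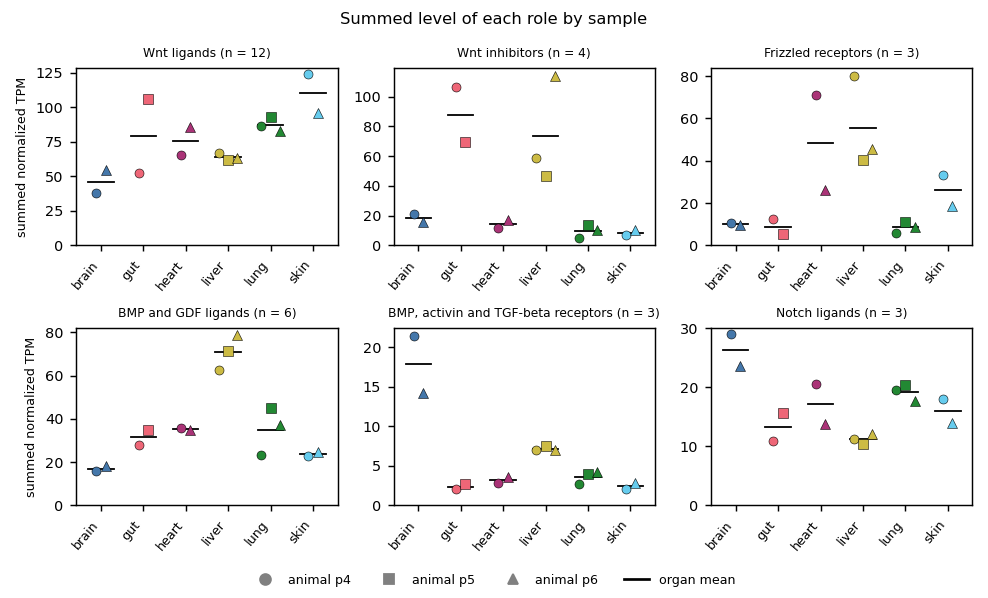
Summed normalized TPM (vertical axis) of the genes of a role in each sample, by organ (horizontal axis), with the animal as the marker shape and the organ mean as a line. Wnt inhibitors are at 46.9 or more in gut and liver and at most 21.1 elsewhere, BMP and GDF ligands are highest in the liver samples (62.4 to 78.9), and receptors of the BMP, activin and TGF-beta group are highest in brain (21.4 and 14.3). With TPM as deposited (not shown), brain overlaps liver for the inhibitors and heart overlaps liver for the BMP and GDF ligands.

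In normalized TPM, BMP and GDF ligands had their highest sum in liver. The 6 ligands BMP2, BMP6, BMP7, GDF3, GDF5 and GDF6 summed to 62.4, 71.5 and 78.9 normalized TPM in the liver samples and to between 15.7 and 44.98 in all other samples, with brain lowest at 15.7 and 18.3. In TPM as deposited, the p4 heart sample lay above the p4 liver sample in this sum, and brain was not lowest. Ligands that the annotation did not name are not in the sum. BMP6, the ligand through which iron raises the hormone hepcidin in the mouse liver, stood at 20.1, 24.3 and 20.5 normalized TPM in liver of p4, p5 and p6. Elsewhere it was between 2.09 and 9.80, with a median of 3.49. The 3 liver samples differed little from each other and were above all others, by 2.25 ± 0.37 on the log2 scale (SE, limma adjusted p = 0.00261). The next samples were lung of p5 and p6 at 9.80 and 8.56, while lung of p4 was at 3.14, and the part of the plasma protein transcripts in the same 2 lung samples was not tested. The call passed without the p5 and p6 lung samples (log2 fold change 2.52, adjusted p = 3.13e-05) and without the p5 liver sample (2.17, adjusted p = 0.0186). With TPM as deposited it did not pass (log2 fold change 1.78, adjusted p = 0.0631).

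BMP2, a ligand with roles in bone, heart and iron balance, stood at 31.8, 30.2 and 44.4 normalized TPM in liver of p4, p5 and p6. Heart came next, at 22.6 and 19.0, followed by 4.56 to 13.4 in the other 9 samples, of which brain was lowest at 4.56 and 5.75. Liver lay above all others by 1.75 ± 0.39 on the log2 scale (SE, limma adjusted p = 0.0218). The call was lost when liver of p4, p5 or p6 was left out (adjusted p = 0.109, 0.0701 and 0.189) or with TPM as deposited (log2 fold change 1.27, adjusted p = 0.465).

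GDF5, a growth factor known from joint formation, was found nearly alone in lung, at 4.37, 4.32 and 4.59 normalized TPM in p4, p5 and p6. It stood at 1.18 in the p5 liver sample and at 0.314 in the p6 brain sample and is listed at 0 in the remaining 9 samples. Lung was above all others by 2.30 ± 0.22 on the log2 scale (SE, limma adjusted p = 0.000136), which was 0.88 with a pseudocount of 5. The p5 liver sample is also the one with transcripts of the lung genes SLC34A2, SFTPB and NKX2-1, whose part in its GDF5 value was not tested. Without that sample the lung difference was 2.42. GDF5 passed the filter through the lung samples alone, so that it could enter the test only by being high there. It was not tested with lung of p5 and p6 both omitted, since it then no longer passed the filter. BMP7, GDF3 and GDF6 did not pass the F test (adjusted p = 0.373, 0.408 and 0.145), with BMP7 between 3.90 and 19.7 and GDF3 and GDF6 at 4.82 or less.

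BMP1 carries the name of the family and is a protease that trims procollagens and the BMP antagonist chordin. It stood at 4.30 and 5.42 normalized TPM in brain of p4 and p6, below all others, which ranged from 5.82 in the p5 gut sample to 41.4 in the p4 liver sample. It was the one gene called lower in brain, by -1.58 ± 0.48 on the log2 scale (SE, limma adjusted p = 0.0348). The call did not pass without either brain sample (adjusted p = 0.46 and 0.136), without the p6 brain and heart samples (0.127), without the p5 and p6 lung samples (0.0519) or with TPM as deposited (log2 fold change -0.43, adjusted p = 0.515), and with a pseudocount of 5 it had an adjusted p of 0.0525. In liver BMP1 was at 23.0 to 41.4, above all other samples, without passing (adjusted p = 0.2).

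TGFB1 was the single TGF-beta ligand in the table. It is an abundant growth factor of immune cells and platelets, and stood at 38.1 and 35.4 normalized TPM in heart, 30.4 and 22.9 in skin, 21.2 to 32.2 in lung, 10.97 to 36.2 in liver, 7.15 and 13.6 in gut and 6.29 and 14.6 in brain. The organs overlapped, and TGFB1 came close to the threshold (adjusted p = 0.0547 from the F test). The p5 liver sample held the highest liver value of TGFB1 and also the highest sum of the leukocyte genes LCP1 and CSF1R, 498 normalized TPM against 194 and 244 in the other liver samples, whose part was not tested.

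Among the receptors of this group, BMPR1B set brain apart. BMPR1B, a type I receptor of BMP and GDF ligands, stood at 19.2 and 11.1 normalized TPM in brain of p4 and p6. Liver came next at 4.86 to 6.09, and the other 9 samples were at 2.11 or less, so that neither brain nor liver overlapped with them. Brain lay above all others by 2.38 ± 0.51 on the log2 scale (SE, limma adjusted p = 0.0048). Without the p4 brain sample the difference was 1.99 and did not pass (adjusted p = 0.222), and without the p6 brain and heart samples it was 2.71 and passed (adjusted p = 0.0307). The type II receptors ACVR2A and BMPR2 stayed between 0.447 and 2.14 in all 14 samples, and differences among organs were not detectable at this level (adjusted p = 0.372 and 0.251 from the F test).

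SMAD9 and SMAD1, which carry BMP signals, were present in every sample. SMAD9 was the higher of them in 13 of 14 samples, at 43.5 and 60.1 normalized TPM in gut, 35.2 and 57.5 in heart and 15.8 and 20.8 in brain, and between 17.7 and 39.7 in the other organs. Neighbouring organs overlapped in this order. It differed among organs by the F test (adjusted p = 0.032), a result that did not pass in 8 of 25 alternatives (adjusted p up to 0.107). SMAD1 ranged from 5.66 to 21.5 and SMAD2, which carries TGF-beta and activin signals, from 0.303 to 2.83, and neither passed the F test (adjusted p = 0.771 and 0.905).

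The 3 Notch ligands were highest in 3 different organs. JAG2, a Jagged ligand, ran from brain at 23.5 and 19.2 normalized TPM through skin at 15.01 and 10.1, heart at 13.0 and 9.06, gut at 6.12 and 8.35 and lung at 3.25 to 5.03 to liver at 1.22 to 2.26. Skin and heart overlapped, and the other neighbours in this order did not. JAG2 had the lowest adjusted p of the 40 genes in the F test (0.000144, and at most 0.00147 in 25 alternatives). It fell just short in both single-organ tests, at a log2 fold change of 1.78 in brain (standard error 0.62, adjusted p = 0.0648 from limma) and -1.83 in liver (standard error 0.46, adjusted p = 0.0511 from limma). The liver difference passed in 9 of 26 alternatives, among them quantile normalization (adjusted p = 0.0346), and the brain difference in 5, among them TPM as deposited (log2 fold change 2.97, adjusted p = 0.00559).

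DLL3, a Delta-like protein that blocks Notch signalling within its own cell in the mouse, stood at 15.96, 14.6 and 12.1 normalized TPM in lung of p4, p5 and p6 and between 1.92 and 6.29 elsewhere, with skin lowest. The lung samples were above all others by 1.57 ± 0.29 on the log2 scale (SE, limma adjusted p = 0.0133). The call was lost when lung of p4, p5 or p6 was left out (adjusted p = 0.102, 0.0891 and 0.0655) or without p5 and p6 together (0.413), and with TPM as deposited the log2 fold change was 0.77 (adjusted p = 0.298). The lung samples then overlapped with brain and with the p4 heart sample, at TPM of 8.28, 10.8 and 7.28 against 11.6 and 8.41 in brain and 9.19 in that heart sample. DLL1, an activating Delta-like ligand, stood at 3.08, 3.21 and 7.91 in liver of p4, p5 and p6 and at most 1.72 elsewhere, which was higher by 1.50 ± 0.28 on the log2 scale (SE, limma adjusted p = 0.00628). Without the p5 liver sample the call passed (log2 fold change 1.68, adjusted p = 0.0148). Without the p6 liver sample it was lost (log2 fold change 1.14, adjusted p = 0.0789), as with TPM as deposited (adjusted p = 0.174) and with a pseudocount of 5 (log2 fold change 0.68).

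NOTCH4 was the one Notch receptor that the annotation named. Whether other Notch receptors are present under another symbol or none is not known here. In mammals NOTCH4 is a receptor of the vessel lining. It stood at 33.9 and 18.8 normalized TPM in heart of p4 and p6, 10.05 to 12.5 in lung and 3.28 and 4.67 in skin, the lowest. Heart lay above all other samples but did not pass against them (1.68 ± 0.40 on the log2 scale, SE, limma adjusted p = 0.0776), and the gene differed among organs (adjusted p = 0.00188 from the F test). The heart difference passed in limma with a pseudocount of 5 (1.30, adjusted p = 0.0276) and against the mean of the other 5 organs (1.73, adjusted p = 0.00198). It passed in no other alternative. Without the p6 brain and heart samples the heart difference was 2.07 (adjusted p = 0.258). Of 6 listed endothelial genes 4 were in the table, and their sum was 7.29 and 7.42 in heart, 17.6 to 18.6 in lung, and 3.03 and 4.41 in skin. The sum ranged from 3.03 to 18.6 over the 14 samples, with lung above heart, and its part in the NOTCH4 values was not tested.

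Of the HES and HEY genes, HES6 had the highest mean and was called in brain. The levels of these genes were not tested as a measure of Notch activity. HES6, which in the mouse promotes neuronal differentiation by opposing HES1, stood at 61.3 and 43.9 normalized TPM in brain of p4 and p6, 32.2 to 39.2 in lung and 15.8 to 30.2 in the other organs. Both brain samples were above all others, by 1.10 ± 0.33 on the log2 scale (SE, limma adjusted p = 0.034). The call did not pass without the p4 or p6 brain sample (adjusted p = 0.546 and 0.0832) or without the p6 brain and heart samples (0.106), and with a pseudocount of 5 the log2 fold change was 0.98.

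HES5, a direct target of Notch in neural progenitors of the mouse, was highest in liver by its mean, at 28.3, 11.2 and 21.7 normalized TPM, against 24.0 in the p4 skin sample and 4.92 and 7.01 in brain, and did not pass (adjusted p = 0.0614 from the F test). HEY1, a target of Notch in vessels and heart of the mouse, was lowest in the heart samples, at 0.17 and listed at 0, and stood at 3.72 and 3.80 in skin and 5.43 and 0.766 in gut. It differed among organs by a small margin (adjusted p = 0.0445), which did not pass in 16 of 25 alternatives (adjusted p up to 0.161). The heart samples thus had the lowest HEY1 and the highest NOTCH4 of the 14.

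**Figure D4:**
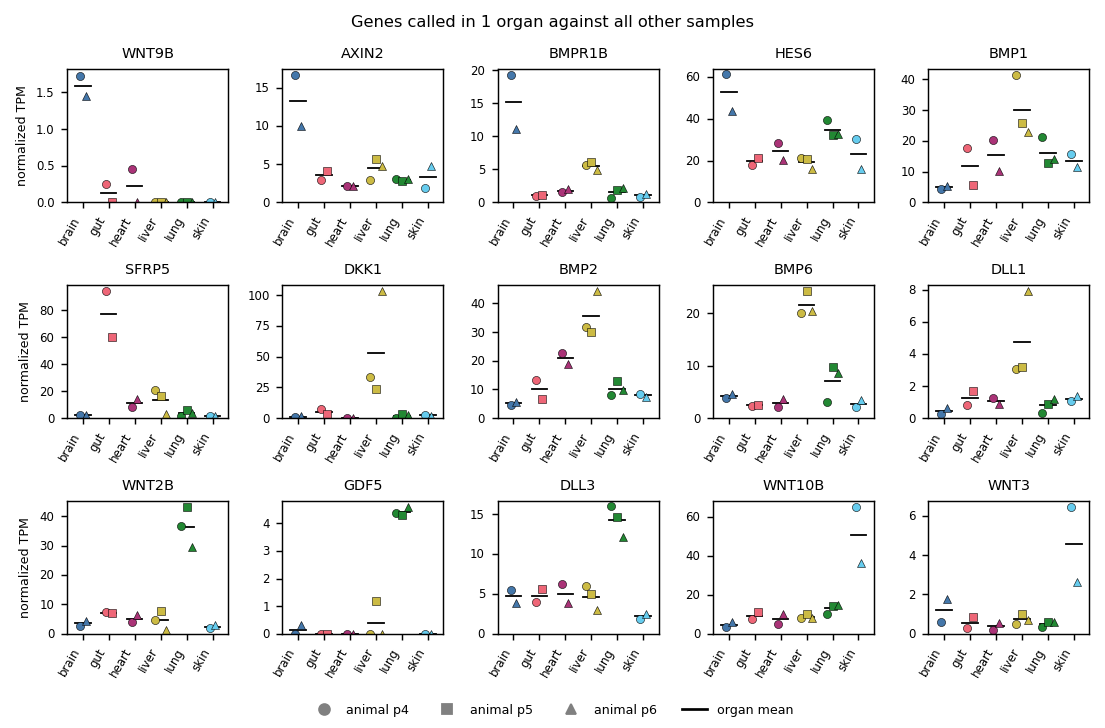
Normalized TPM (vertical axis, from 0) of the 15 genes called in 1 organ against all other samples, in each sample by organ (horizontal axis), with the animal as the marker shape and the organ mean as a line. In 14 panels every sample of the called organ lies above all others, and in that of BMP1 both brain samples, at 4.30 and 5.42, lie below them.

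**Figure D5:**
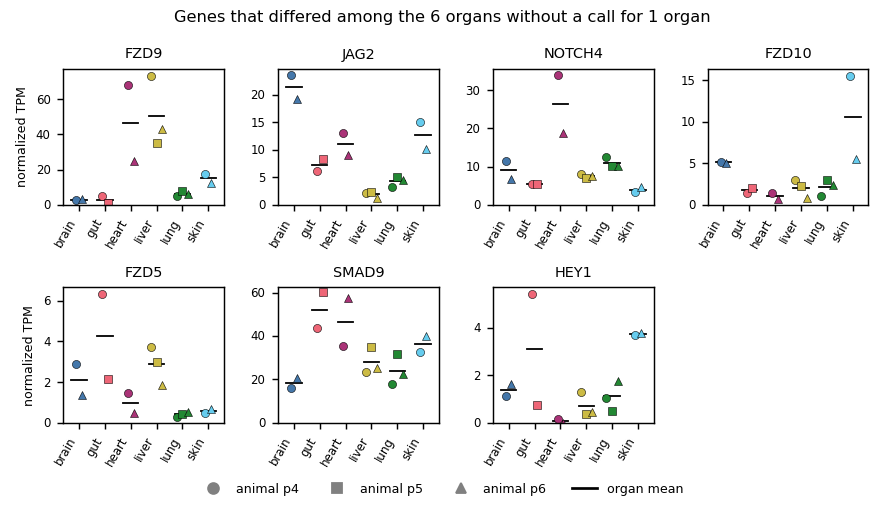
Normalized TPM (vertical axis, from 0) of the 7 genes that differed among the 6 organs by the F test without a call for 1 organ, in each sample by organ, with the animal as the marker shape and the organ mean as a line. FZD9 is high in heart (68.2 and 24.9) and liver (35.3 to 73.3), and JAG2 descends from brain (23.5 and 19.2) to liver (1.22 to 2.26).

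The samples were also compared without a test. All samples of the organ lay above every other sample for 5 of the 40 genes in brain, where this held for 13.1% of all genes tested, and for 1 gene of gut (4.61%) and 1 of heart (3.34%). The same held for 5 genes of liver (2.84%), 3 of lung (1.89%) and 3 of skin (4.61%). The brain genes include WNT9B and the lung genes GDF5, which passed the filter through that organ alone and so had to be high there. By the highest organ mean, 8 genes were led by brain, 6 by gut, 7 by heart, 8 by liver, 5 by lung and 6 by skin, so that no organ held most of them. By the lowest mean, 11 were lowest in brain and 3 in lung. The shares of all genes by leading or lowest organ were not computed, so these counts cannot be set against them. The counts also depend on the divisors given above. The median log2 fold change of the 40 genes was -0.33 in brain, where that of all genes was 0.04, and -0.21 in lung against -0.09.

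Other genes of the same pathways were taken from lists of receptors, transducers and modulators that hold none of the 40. Over all genes tested, 11.2% were called higher and 3.36% lower in brain, 1.86% and 0.0674% in gut, and 2.29% and 0.0613% in liver. In heart, lung and skin 0.723%, 0.821% and 1.94% were called higher. Of 51 listed Wnt genes 33 were tested, and 4 of them were called higher in brain, 1 lower in brain, 1 higher and 1 lower in gut, and 1 higher in liver, with 0 in heart, lung and skin. In brain these were CELSR2, a cadherin of planar polarity (3.03 ± 0.63 on the log2 scale, SE, limma adjusted p = 0.00351), RYK, a Wnt co-receptor (1.85 ± 0.36, SE, limma adjusted p = 0.00239), DVL1, which relays the signal from Frizzled (1.75 ± 0.29, SE, limma adjusted p = 0.000655), and the corepressor TLE4 (1.001, adjusted p = 0.0497), with PRICKLE1 of planar polarity lower (-2.04, adjusted p = 0.00854). CELSR2 stood at 107 and 44.6 normalized TPM in brain and at most 17.3 elsewhere. The polarity gene VANGL2 was higher in liver (29.5 to 54.3, against at most 20.7 elsewhere, log2 fold change 1.82, adjusted p = 0.00638), PYGO1, a partner of beta-catenin, was higher in gut (1.96, adjusted p = 0.00156) and CELSR1 was lower there (-1.54, adjusted p = 0.0364), all from limma. PRICKLE1 did not pass with its rows summed (log2 fold change -0.27, adjusted p = 0.767) or without either brain sample (0.159 and 0.0883), and CELSR1 and TLE4 did not pass in 13 and 17 of 26 alternatives. PYGO1 did not pass without the p5 gut sample (adjusted p = 0.0984) nor VANGL2 without the p5 liver sample (0.0661). The median of the tested genes was -0.10 in brain, against 0.04 for all genes, and -0.25 in lung, against -0.09. The share of the tested Wnt genes called higher in brain was near that of all genes.

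Of 43 listed BMP and TGF-beta genes 16 were tested, with 3 called higher and 1 lower in brain, 1 higher in heart and 1 higher in liver. Among all genes tested, 11.2% were called higher and 3.36% lower in brain, 0.723% higher in heart and 2.29% higher in liver. RGMB, a co-receptor of BMP ligands in neurons, stood at 118 and 85.0 normalized TPM in brain and at most 30.6 elsewhere (2.83 ± 0.56 on the log2 scale, SE, limma adjusted p = 0.00247). ID4 and ID3 are targets of BMP signalling. ID4 stood at 431 and 473 in brain and at most 171 elsewhere (2.72 ± 0.55, SE, limma adjusted p = 0.00312), and ID3 at 209 to 297 in liver and at most 126 elsewhere (1.85 ± 0.43, SE, limma adjusted p = 0.0301). Liver had the highest levels of BMP2, BMP6 and ID3, while ID4 was low there, at 28.6, 70.0 and 26.5 in p4, p5 and p6. The ID3 call did not pass in 9 of 26 alternatives. These include both replicate blocks (log2 fold change 1.80 and 1.87, adjusted p = 0.0554 and 0.0658 from limma), each liver sample left out (adjusted p = 0.173, 0.0792 and 0.201), quantile normalization (0.0535) and TPM as deposited (0.521). The BMP antagonist NOG was higher in brain at a low level (2.42 and 2.93, against at most 1.08, log2 fold change 1.25, adjusted p = 0.00149 from limma), and LTBP3, which stores latent TGF-beta in the matrix, in heart (233 and 85.1, against at most 36.9, log2 fold change 2.41, adjusted p = 0.00273 from limma). NOG would not have passed the filter without the brain samples, and so had to be high there. Without the p6 brain and heart samples NOG was not tested, since it then no longer passed the filter. The pseudoreceptor BAMBI was the gene lower in brain (log2 fold change -2.07, adjusted p = 0.046), overlapped with skin of p6 and did not pass in 17 of 26 alternatives, both blocks among them (adjusted p = 0.0808 and 0.0864). The median of the tested genes was -0.10 in brain and 0.16 in heart, against 0.04 and -0.06 for all genes.

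Of 32 listed Notch genes 16 were tested, and 4 were called higher in brain and 1 in heart. Among all genes tested, 11.2% were called higher in brain and 0.723% in heart. DLK1, a Delta-like protein that lacks the Notch-binding domain of the classical ligands, stood at 465 and 331 normalized TPM in brain, 26.4 to 28.4 in lung and at most 6.69 elsewhere (5.91 ± 0.99 on the log2 scale, SE, limma adjusted p = 0.000683). DTX1, a regulator of Notch trafficking, stood at 33.3 and 8.55 in brain and at most 3.57 elsewhere (2.51 ± 0.36, SE, limma adjusted p = 0.000163). LFNG, which adds sugars to Notch, and the sheddase ADAM17 were the other brain genes (1.58 and 1.24, adjusted p = 0.00188 and 0.0246). MIB1, which lets ligands be taken up by the cell that sends the signal, was higher in heart (4.24 and 3.23, against at most 1.48, log2 fold change 1.51, adjusted p = 0.00404 from limma). With all samples kept, the median of the tested Notch genes in brain was 0.27, against 0.04 for all genes. Without the p4 brain sample the brain calls of RYK, CELSR2, DVL1, TLE4, RGMB, ID4, LFNG and ADAM17 did not pass. Their log2 fold changes in brain were then 1.27, 2.41, 1.43, 0.97, 2.60, 2.79, 1.30 and 0.75. Without the p4 heart sample neither LTBP3 nor MIB1 passed (adjusted p = 0.381 and 0.279). Without the p6 brain and heart samples ID4 and MIB1 did not pass (0.0516 and 0.0589), nor did TLE4, PRICKLE1 and BAMBI (0.213, 0.086 and 0.127). NOG was not tested there, and CELSR2, RYK, DVL1, RGMB, LFNG, ADAM17, DTX1, DLK1 and LTBP3 passed (adjusted p between 4.5e-05 and 0.0343). With a pseudocount of 5 the log2 fold changes of RYK, PYGO1, NOG and MIB1, which are low genes, were 0.74, 0.97, 0.46 and 0.62, below the threshold.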

How the data were processed

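RNA-seq of 14 samples was analysed, grouped by the organ in the sample title. Reads trimmed with Cutadapt and Trimmomatic were mapped by the authors with bwa mem against a reference of 1 transcript per gene, and featureCounts gave the counts. The table deposited by the authors holds TPM, summing to 1000000 per sample. How TPM were computed, and whether duplicates were removed by the molecular identifiers of the adaptors, is not given in the sources used here. The authors give an approximate sequencing depth per sample. Counts per gene are not known from TPM, so precision is the spread between samples. No sequence of the genes was used here.

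The TPM were scaled by median ratios and tested as log2(value + 1) with limma 3.58.1 under R 4.3.3, with a variance trend and Benjamini-Hochberg adjustment over 16317 genes that reached a TPM of 1 in 2 or more samples. The study's DESeq2 needs counts and was not run. The procedure was checked on simulated data in which some genes were raised in brain only. Those data held no other difference among organs, so that the check does not cover the spread among the other organs. Samples with the same number in the title are from the same animal, and their deviations from organ means correlated by a median of 0.16 over 28 pairs (-0.03 to 0.39), or 0.12 with the animals of the supplementary sample list, which differ for 1 gut and 1 heart sample. Within an organ, separate animals are the replicates. The test against all other samples treated those 11 or 12 samples, from 3 animals and several organs, as independent.

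Members, role lists and pathway lists were chosen with earlier results of these data known. Named are all genes called in an organ, the 2 with the highest mean in each role, and in the pathway lists up to 3 called genes per organ whose samples do not overlap with the others. TLE4, BAMBI and ADAM17, and the other members given with values, were named after their values were seen. As alternatives the pseudocount was 0.1 or 5, low genes were kept or filtered at a mean TPM of 1, scaling was by quantiles or left out (TPM as deposited), and fits used 6 organ means, the animal as a replicate block by title or sample list, summed rows of a symbol, each sample left out, p6 brain and heart left out, and p5 and p6 lung left out.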

Additional observations from a re-analysis of the deposited data

How the results depend on the processing

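The 15 calls of single genes kept their direction in all 384 values that the alternatives gave, and 348 of these passed. Of the 36 that did not, 17 came from leaving out 1 sample. Each of the 17 left out a sample of the called organ, while most of the 208 leave-one-out values left out a sample of another organ. The pooled counts are therefore not a measure of how a call holds when its own organ loses a sample. The replicate block by title ended 1 call of the 15 (SFRP5 in gut, log2 fold change 3.42), and that by the sample list ended 0. WNT9B and GDF5 gave no value under a mean TPM of at least 1. With TPM as deposited, members higher in brain were 10 in place of 4, in liver 1 in place of 4, in lung 1 in place of 3 and in skin 1 in place of 2, lower in brain 0, and 12 Notch list genes were called in place of 5. Among all genes tested, 6579 were then called higher in brain in place of 1822. When an organ was set against the other 5 organ means, 4 members were lower in brain, 2 higher and 2 lower in gut, 2 higher and 1 lower in heart, 1 lower in liver and 4 lower in skin, and 16 Wnt list genes were called in place of 8. The share of all genes called in this fit was not computed. With a pseudocount of 5, 0 were lower in brain and 1 higher in heart. In liver 1 was lower with a pseudocount of 0.1, a mean TPM of at least 1, quantile normalization, and without the p5 and p6 lung samples. Without the p6 brain and heart samples 2 were higher and 0 lower in brain, and the lists held 5 Wnt and 3 BMP and TGF-beta genes. Without the p5 and p6 lung samples 0 were lower in brain and 0 higher in lung. With the title block 0 were higher in gut. The cause of these shifts was not tested.

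Leaving out each sample gave 0 to 5 members higher and 0 to 1 lower in brain, 0 to 1 higher in gut, 2 to 5 higher and 0 to 1 lower in liver, 2 to 3 higher in lung, 0 to 3 higher in skin, and 3 to 10 Wnt, 3 to 7 BMP and TGF-beta and 3 to 6 Notch list genes. The lowest brain count came without the p4 brain sample (0) and the lowest skin count without the p4 skin sample (0). Gut had 0 without either gut sample, and liver 2 without its p6 sample. An organ left with 1 sample was assumed to vary like the others. With TPM as deposited the share of calls that were higher over all genes was 99.6% in brain and 57.1% in lung, against 76.8% and 95.0% with normalized TPM.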

Other observations

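Further assembled rows carried the symbols HES6, HES5 and NOTCH4. The second HES6 row reached 22.1 and 16.7 normalized TPM in brain of p4 and p6 and between 3.24 and 6.002 in all other samples, so that both brain samples lay above the rest in this row as in the first. The second HES5 row stood at 11.2 to 13.8 in liver and at 12.7 in the p6 heart sample, against 1.39 to 6.89 in the remaining 10 samples. Of 2 further NOTCH4 rows, the higher was between 0 and 1.56, with 0.65 and 0.418 in heart. These rows were not tested on their own here, and whether they are separate genes or parts of the same gene is not known from the table.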
